A study of Rattus norvegicus with 15 samples.

Results

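The epithelial sodium channel and the genes through which aldosterone acts on it were described in whole kidneys of 5-week-old rats. The set comprised 10 of the 10969 genes named on the arrays: the channel subunits Scnn1a, Scnn1b and Scnn1g, the corticosteroid receptors Nr3c2 and Nr3c1, the steroid enzymes Hsd11b2 and Hsd11b1, the kinase Sgk1, and the ubiquitin ligases Nedd4 and Nedd4l. All probe sets whose array annotation named 1 of these genes were taken, which gave 21 of the 26202 probe sets of the series that are not hybridisation controls. They lay on 3 array designs, with 12 probe sets on array A, 5 on array B and 4 on array C. Scnn1a, Scnn1b, Scnn1g, Hsd11b2, Hsd11b1 and Sgk1 had 1 probe set each, all on array A, Nr3c2 had 3, Nr3c1 and Nedd4 had 5 each, and Nedd4l had 2.

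Total RNA of each kidney was hybridised to single-channel arrays, 5 per design, which carry the kidney numbers 1 to 5. On arrays B and C, kidneys 1 to 3 came from the inbred Dahl salt-sensitive rat (Dahl S), whose blood pressure rises with dietary salt, and kidneys 4 and 5 were of a strain congenic for chromosome 10, in which a piece of that chromosome from another strain lies on the Dahl S background. On array A the labels call all 5 kidneys Dahl S, against those of the same numbers on B and C, so the strain of kidneys 4 and 5 there is unsettled. Their values are set beside those of the Dahl S kidneys as a description, and no test was run on array A. No diet or treatment is given for any group, the donor strain is not given in the sources used here, and nothing in the labels tells whether 1 animal gave 1 kidney. The p-values therefore reflect how far these samples spread, and that spread may be technical alone. None of the 10 genes lies on chromosome 10, by the rat assembly GRCr8: Scnn1b, Scnn1g and Sgk1 are on chromosome 1, Scnn1a on 4, Nedd4 on 8, Hsd11b1 on 13, Nr3c1 and Nedd4l on 18, and Nr3c2 and Hsd11b2 on 19.

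Aldosterone acts in the connecting tubule and collecting duct, where principal cells take up sodium through a channel built of an alpha, a beta and a gamma subunit. The hormone binds the mineralocorticoid receptor Nr3c2, and the enzyme Hsd11b2 keeps glucocorticoids from that receptor by inactivating them, while Hsd11b1 regenerates them. Among the genes the receptor induces is Sgk1, a kinase that phosphorylates the ubiquitin ligase Nedd4l and so reduces removal of the channel from the cell surface. Rare mutations that delete the site where Nedd4-type ligases bind the channel cause salt-sensitive hypertension in humans.

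Signal was a linear intensity that had been scaled per array before deposit. Values under the 25th percentile of a design, its floor, were treated as too dim to order (85.1 on A, 140.1 on B, 153.6 on C). A probe set is called tested where its mean over the 5 kidneys reached the median of the design (319.5 on A, 485.8 on B, 510.3 on C). Such probe sets were compared between strains on arrays B and C only. For array A the word means no more than that the median was reached. Of the 21 probe sets, 11 reached it, for 8 genes: array A gave 6 of its 12, array B 1 of 5 and array C all 4. Scnn1b and Nr3c1 had no probe set that did.

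**Figure D1:**
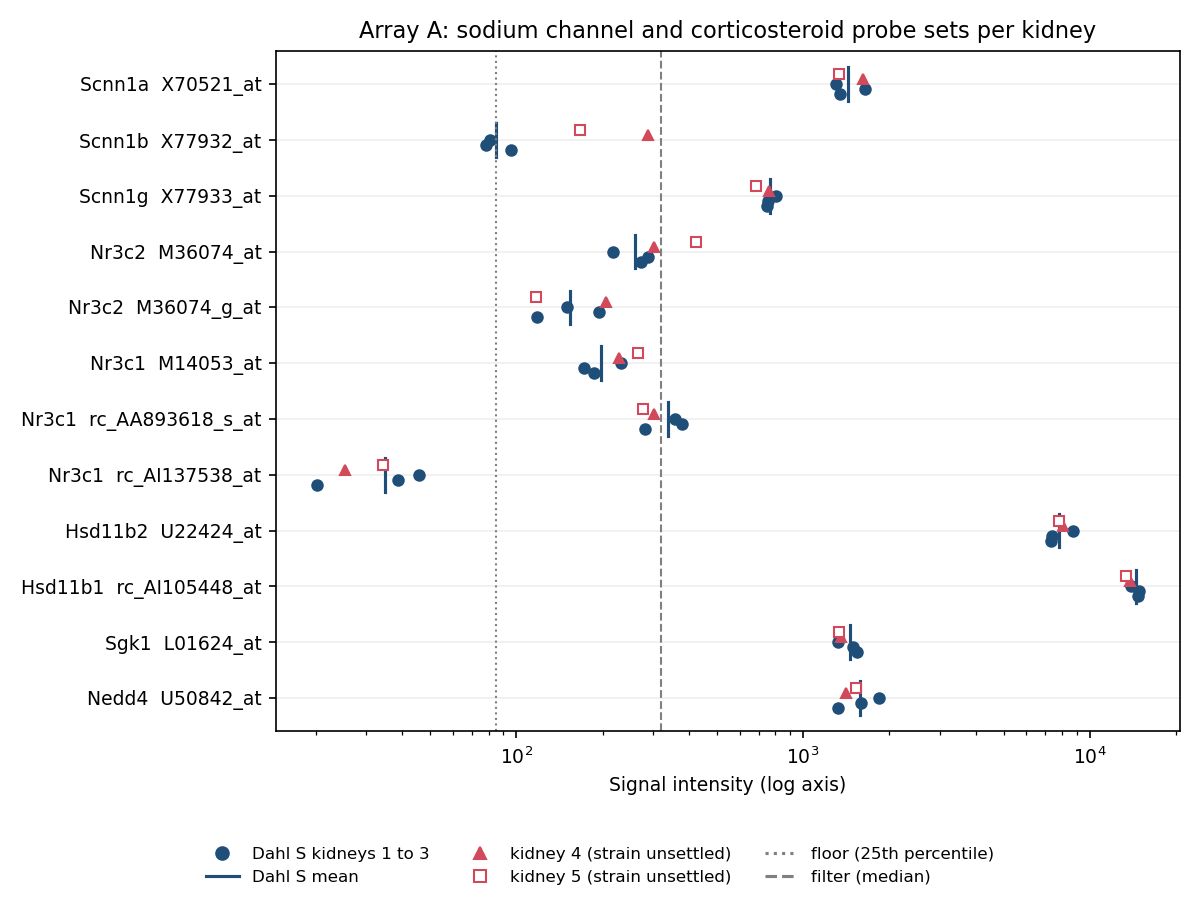
Signal intensity (log axis) of the 12 probe sets on array A in each kidney, with the Dahl S mean as a vertical bar, the floor of 85.1 dotted and the median of 319.5 dashed. Kidneys 4 and 5, of unsettled strain, stand above the Dahl S kidneys for Scnn1b, at 288.8 and 167.1, and mix with them or lie close by for most other probe sets.

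Scnn1b, the beta subunit, had the widest gap between kidneys of the channel genes. Its signal was 95.8, 78.6 and 80.7 in Dahl S kidneys 1 to 3, around the floor, and 288.8 and 167.1 in kidneys 4 and 5. Both of the latter lay above all Dahl S values, of which 2 were under the floor. Such an order of the 5 kidneys was found for 7.39% of all probe sets of array A, and a gap at least as wide, with the lower of kidneys 4 and 5 at 1.74 times the highest Dahl S value, was found for 0.286% (25 of 8740). Among the 4329 probe sets that, like Scnn1b, did not reach the median, the share was 0.508%. These shares were counted on unfloored signals, so probe sets with values under the floor could enter them. All 5 values of Scnn1b were dim, and with the floor set at the 40th percentile 4 of the 5 kidneys lay below it and the gap disappeared.

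The other subunits did not show this order. Scnn1a, the alpha subunit, which is needed for the channel to conduct, measured 1348, 1641 and 1299 in Dahl S kidneys 1 to 3 (mean 1429.5 ± 185, SD, n = 3) and 1612 and 1337 in kidneys 4 and 5. Scnn1g, the gamma subunit, measured 746.1, 753.8 and 803.6 (768 ± 31.2, SD, n = 3) and 760.7 and 684.2. The values of kidneys 4 and 5 therefore fell within or overlapped the Dahl S range for the alpha and gamma subunits, while those of the beta subunit lay outside it. The spread of Scnn1g over the Dahl S kidneys was 4.07% of its mean, against a median of 13.1% for the tested probe sets of the array.

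Scnn1g and Scnn1b lie next to each other on chromosome 1, with no annotated gene between them, and the order of the kidneys differed between them. The stretches just before the 2 gene starts are shown for that reason, from RefSeq on assembly GRCr8, both on the plus strand, 5′ to 3′. Capitals mark the GC box GGGCGG or its reverse complement CCGCCC. The first is chr1:185735975-185736224 and the second chr1:185861126-185861325.
Scnn1g: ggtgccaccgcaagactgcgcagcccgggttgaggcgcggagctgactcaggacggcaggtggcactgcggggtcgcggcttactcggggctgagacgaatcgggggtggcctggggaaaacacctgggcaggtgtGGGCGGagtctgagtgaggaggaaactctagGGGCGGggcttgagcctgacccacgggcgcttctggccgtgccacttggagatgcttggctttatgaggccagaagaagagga
Scnn1b: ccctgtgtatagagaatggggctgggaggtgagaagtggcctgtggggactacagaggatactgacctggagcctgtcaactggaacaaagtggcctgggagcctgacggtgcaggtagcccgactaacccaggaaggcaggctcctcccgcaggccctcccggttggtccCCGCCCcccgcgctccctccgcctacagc
Both stretches are rich in G and C, at 65.6% for Scnn1g and 65.0% for Scnn1b. Their whole promoter windows in the RefSeq table, which run past the gene start, hold 65.0% and 62.7%, where the median window holds 51.7%. Scnn1g has 2 GC boxes and Scnn1b 1, a motif that 33.1% of the 33469 promoter windows hold on either strand. AGAACA is the core of the site shared by the mineralocorticoid and glucocorticoid receptors. Read on both strands, it was not in any window of the 6 member genes in that table (Scnn1b, Scnn1g, Nr3c1, Sgk1, Nedd4 and Nedd4l), and 20.7% of all windows hold it. The windows are short, and those of Nr3c1 and Sgk1 lie inside the annotated gene, so sites elsewhere were not read.

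Markers of the cells that carry the channel were read on the same arrays. Of 12 principal cell and connecting tubule genes, 11 were on array A and 9 reached the median. Of these 9, 3 were above all Dahl S kidneys in both kidneys 4 and 5, and 1 was below, where 8.82% and 10.1% of the tested probe sets of the array had those orders. The water channel Aqp3 measured 3731, 4071 and 4695 in Dahl S kidneys and 6082 and 4788 in kidneys 4 and 5. Aqp2, the vasopressin-regulated water channel, measured 6022, 5434 and 6094, then 8109.9 and 6484, and the vasopressin receptor Avpr2 2544, 2393 and 2805, then 3198 and 2961. Kidney 4 was the highest of the 5 for these 3 genes and for the potassium channel Kcnj1, as it was for Scnn1b. It was the lowest for Kcne1, at 345.5 against 459.1 to 611.6 in Dahl S kidneys, and for Krt19. Calb1 lay inside the Dahl S range in both kidneys, and Fxyd4 and Slc8a1 did so in kidney 4. The median log2 deviation of the 9 genes from their Dahl S mean was −0.002 in kidney 4 and −0.089 in kidney 5.

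Krt19, a keratin of simple epithelia, went the other way on array A, at 928, 787 and 968 against 459 and 468. It was lower in both congenic kidneys on the other designs too, at 1739, 1458 and 1727 against 613.3 and 1039 on array B (log2 difference −1.03, SE 0.24, limma adjusted p = 0.934) and at 1625, 1290.3 and 1567 against 536.7 and 476.3 on array C (log2 difference −1.56, SE 0.16, limma adjusted p = 0.0754). Neither passed the threshold. Over the alternatives the adjusted p was 0.0452 to 1.0 on B and 0.0329 to 0.712 on C, under 0.05 without congenic kidney 5 on B (0.0452) and on C (0.0390), and with an intensity trend and robust variance on C (0.0329). Of the same list, 3 genes were tested on array B, 1 higher and 2 lower in congenic kidneys (median log2 difference −0.14). On array C 4 were tested, 2 higher and 2 lower (median 0.05). Of all tested probe sets, 51.4% were lower on B and 52.1% on C. Slc8a1 on B went against Krt19, at 3596, 4304 and 4341 in Dahl S against 4762.5 and 4470 in congenic kidneys. The summed signal of the 9 genes on array A was 39289 to 42810 in the Dahl S kidneys, 45130 in kidney 4 and 37876 in kidney 5. The part of these cells in the Scnn1b values was not tested, and in whole kidney more cells of a type and more RNA per cell cannot be told apart. Of the other marker lists, intercalated cells (2 genes), distal convoluted tubule and thick limb (4) and adrenal gland (4) had no tested gene on array A with both kidneys 4 and 5 outside the Dahl S range. Leukocyte markers had 1 of 5 and vascular and interstitial markers 1 of 10, each below it, an order that 10.1% of the tested probe sets had. Between the strains, leukocyte markers were lower for 3 of 3 tested genes on B and 3 of 5 on C. Vascular and interstitial markers were lower for 1 of 2 on B and 6 of 7 on C. On C 3 of these 7 were below the Dahl S range in both congenic kidneys, as were 12.2% of the tested probe sets. None of these genes passed the limma threshold.

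**Figure D2:**
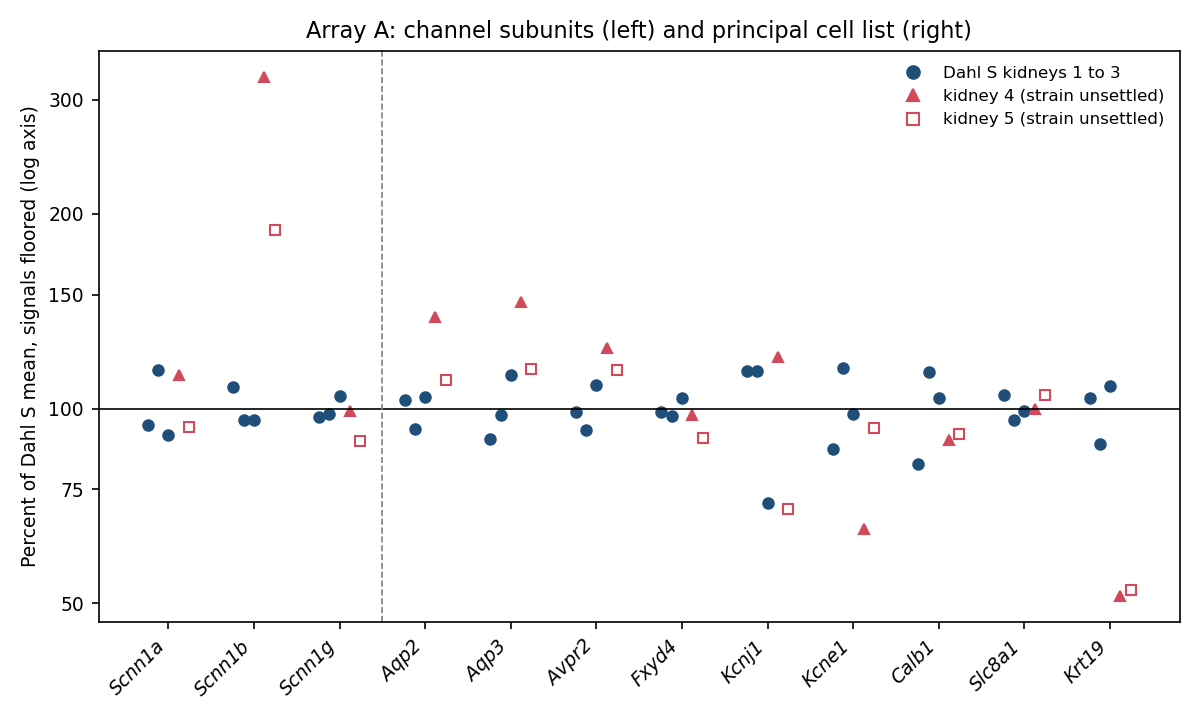
Signal of the 3 channel subunits and of the 9 tested principal cell and connecting tubule genes on array A in each kidney, as a percentage of the Dahl S mean (log axis), with signals under the floor of 85.1 set to it. Scnn1b stands at 325.7% in kidney 4 and 188% in kidney 5, lower bounds since 2 Dahl S kidneys are at the floor, Aqp2, Aqp3 and Avpr2 lie above all Dahl S kidneys by less, and Krt19 lies below.

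The mineralocorticoid receptor Nr3c2 was dim on array A and gave different orders of the kidneys with different probe sets. The probe set M36074_at measured 271.1, 287.9 and 217.5 in Dahl S kidneys and 301.0 and 423.0 in kidneys 4 and 5. Both were above the Dahl S values, the nearer by a ratio of 1.05, an order that 7.39% of all probe sets of array A had. From the same accession, M36074_g_at measured 117.6, 194.0 and 149.7, then 205.9 and 116.9, with kidney 5 the lowest of the 5. None of these reached the median of the array on average. On array C, where Nr3c2 was tested, rc_AI177132_i_at measured 407.0, 552.0 and 629.5 in Dahl S (529.5 ± 113, SD, n = 3) and 514.2 and 635.7 in congenic kidneys (575 ± 85.9, SD, n = 2). The strains overlapped, and the log2 difference of 0.13 (congenic minus Dahl S, SE 0.21, 95% confidence interval −0.36 to 0.63, limma adjusted p = 0.932) allowed congenic levels from 0.778 to 1.55 times those of Dahl S. Its sign turned without Dahl S kidney 1 (−0.044) and without congenic kidney 5 (−0.019).

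The glucocorticoid receptor Nr3c1, which also binds the response element of Nr3c2 and is found in nearly all cells, had 5 probe sets, and all were below the median of their array. On array A, rc_AA893618_s_at measured 281.1, 378.0 and 357.0 in Dahl S kidneys and 302.5 and 277.1 in kidneys 4 and 5, and M14053_at 186.9, 171.7 and 232.0, then 228.8 and 265.9. The mean of the former over the 5 kidneys, 319.1, fell just short of the median of 319.5. Kidney 5 was thus the lowest of the 5 by the first probe set and the highest by the second. The third, rc_AI137538_at, was below the floor in all 5 kidneys (20.2 to 45.8).

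On array B the Nr3c1 probe set rc_AA848823_s_at was lower in both congenic kidneys, at 147.0 and 162.7 (155 ± 11.1, SD, n = 2), than in Dahl S kidneys, at 204.3, 291.5 and 224.2 (240 ± 45.7, SD, n = 3). The strains did not overlap, as for 9.65% of all probe sets of array B in this direction. With the floor set at the 40th percentile all 5 kidneys lay below it, and the separation disappeared. It was too dim for the test. With no filter on low values its log2 difference was −0.62 (SE 0.19, unadjusted p = 0.0396, limma adjusted p = 1.0). Its partner rc_AA848823_i_at was below the floor in 4 of 5 kidneys, with 261.4 in Dahl S kidney 2. In the limma fit with no filter that partner had a log2 difference of −0.30 (unadjusted p = 0.459). The other dim members of array B had −0.35 (Nedd4 rc_AA963340_at, unadjusted p = 0.346) and 0.09 (Nedd4l rc_AA956102_at, unadjusted p = 0.636) in that fit.

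The enzymes that set the steroid supply had bright and even signals on array A. Hsd11b2, which protects the mineralocorticoid receptor, measured 7309, 7365 and 8709 in Dahl S kidneys (7795 ± 793, SD, n = 3), and kidneys 4 and 5, at 8039 and 7835, fell inside that range. Hsd11b1 measured 14743, 14803 and 13964 (14504 ± 468, SD, n = 3), then 13771 and 13372. Both of the latter were below all Dahl S values, the higher at 0.986 times the lowest of those, an order that 10.1% of the tested probe sets of array A showed. The Dahl S spread of Hsd11b1 was 3.23% of its mean, the smallest of the 6 member probe sets that reached the median of array A.

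Sgk1, whose transcript rises within hours of aldosterone, measured 1539.7, 1489 and 1328 in Dahl S kidneys (1452 ± 111, SD, n = 3) and 1353 and 1334 in kidneys 4 and 5. Kidneys 3, 4 and 5 lay close together and kidneys 1 and 2 above them, so that the groups overlapped, with a highest value 1.16 times the lowest. Of the 10 tested immediate early genes of array A, which respond to handling and stress, 1 (Egr1) was above the Dahl S range in both kidneys 4 and 5 and 1 (Jun) below it. These counts are near the shares of all tested probe sets of the array, 8.82% above and 10.1% below.

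Nedd4 and Nedd4l, ubiquitin ligases that bind a proline-rich motif of the channel and mark it for removal, had 6 of the 9 member probe sets on arrays B and C. Nedd4 was lower in both congenic kidneys with 1 of 2 probe sets on array B and 1 of 2 on array C, and none of these differences passed the test. On array B, rc_AA944469_at measured 2210, 1949 and 2249.7 in Dahl S kidneys (2136 ± 164, SD, n = 3) and 1753 and 1829 in congenic kidneys (1791 ± 54.1, SD, n = 2). The strains did not overlap, and the log2 difference was −0.25 (SE 0.14, 95% confidence interval −0.58 to 0.07, limma adjusted p = 0.998), a congenic level 0.670 to 1.05 times that of Dahl S. Of the 4385 tested probe sets of array B, 0.0912% passed the threshold of an adjusted p of 0.05, and 9.44% were lower in both congenic kidneys without overlap.

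On array C, rc_AI227677_at measured 2582, 2592 and 2606 in Dahl S kidneys, a spread of 0.453% of the mean (2593 ± 11.8, SD, n = 3), and 2288 and 2164 in congenic kidneys (2226 ± 87.9, SD, n = 2). Both congenic values were below all Dahl S values, with a log2 difference of −0.22 (SE 0.13, 95% confidence interval −0.52 to 0.08, limma adjusted p = 0.865). limma draws the variance of each probe set toward that of the others. With no filter on low values the SE was 0.029 and the adjusted p 0.372. On array C none of the 4420 tested probe sets passed the threshold with limma (0.0%), 274 had an unadjusted p under 0.05, and 12.2% were lower in both congenic kidneys without overlap.

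The other Nedd4 probe sets did not separate the strains. On array C, rc_AI230744_at measured 9565, 8249 and 8869 in Dahl S and 7957 and 8809 in congenic kidneys, with kidney 5 inside the Dahl S range (log2 difference −0.08, 95% confidence interval −0.42 to 0.25, limma adjusted p = 0.937). On array B, rc_AA963340_at was dim, at 136.4, 171.2 and 262.8, then 149.4 and 53.3. On array A, U50842_at measured 1323, 1589 and 1841 in Dahl S kidneys (1584 ± 259, SD, n = 3) and 1413 and 1529.8 in kidneys 4 and 5, inside that range. The same gene thus gave non-overlapping strains with 2 of its 4 probe sets on B and C, on the same kidney numbers, so that these are not independent observations.

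**Figure D3:**
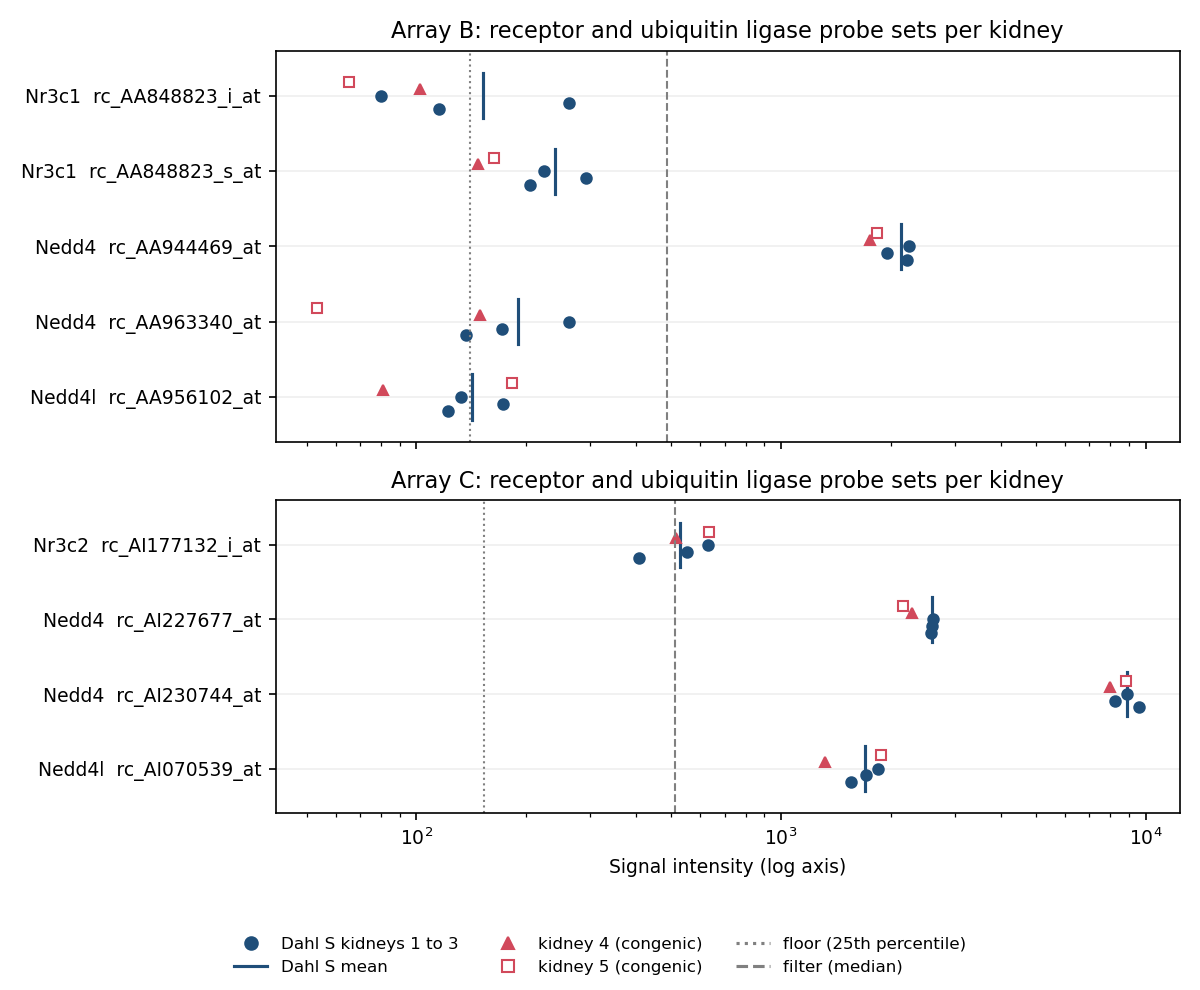
Signal intensity (log axis) of the member probe sets on arrays B and C in each kidney, with the Dahl S mean as a vertical bar, the floor dotted and the median dashed. Congenic kidneys 4 and 5 lie below all Dahl S kidneys for Nedd4 rc_AA944469_at, Nedd4 rc_AI227677_at and Nr3c1 rc_AA848823_s_at, and overlap with them for the others.

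Nedd4l, the ligase that Sgk1 restrains, measured 1557, 1709 and 1846 in Dahl S kidneys (1704 ± 144, SD, n = 3) and 1321 and 1884 in congenic kidneys (1602 ± 398, SD, n = 2) with rc_AI070539_at on array C. Congenic kidney 4 was the lowest and congenic kidney 5 the highest of the 5, and the log2 difference of −0.11 (SE 0.19, 95% confidence interval −0.54 to 0.33, limma adjusted p = 0.942) became 0.15 without kidney 4. On array B, rc_AA956102_at was below the floor in 3 of 5 kidneys, at 121.8, 172.5 and 132.7, then 80.7 and 183.2. Kidney 4 was again the lowest and kidney 5 the highest, at signals too dim to order below 140.1.

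**Figure D4:**
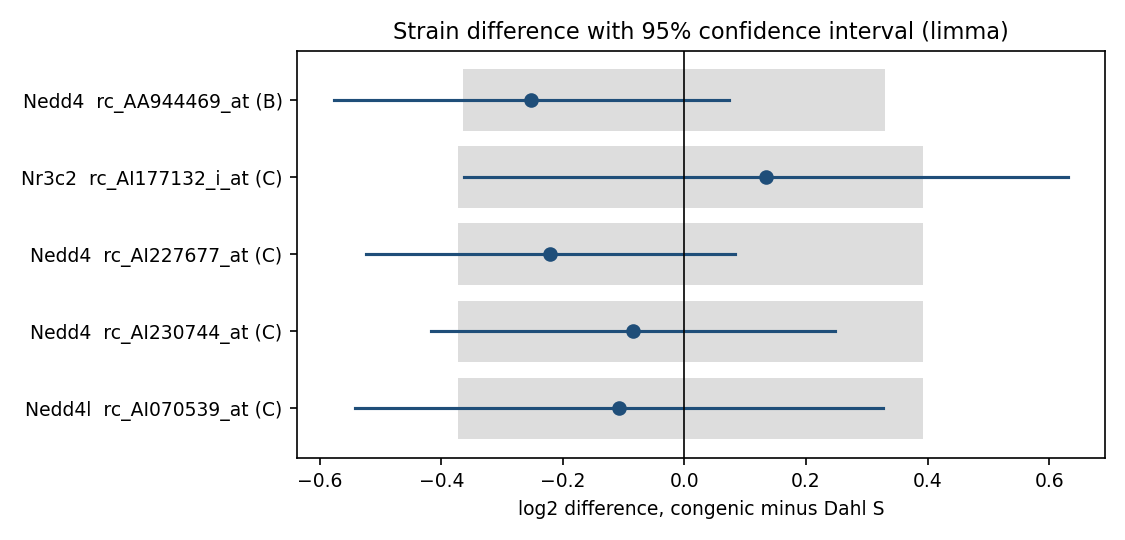
Log2 difference of congenic minus Dahl S kidneys for the 5 member probe sets tested on arrays B and C, with the 95% confidence interval of limma as a line and the 5th to 95th percentile of all tested probe sets of the array as a grey band. The intervals of all 5 include 0, and the differences range from −0.25 to 0.13.

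Over the 5 tested member probe sets, 4 had a negative and 1 a positive difference, 0 passed the limma threshold, and the adjusted p was between 0.865 and 0.998. The negative ones were those of Nedd4, read on the same kidney numbers, and of Nedd4l, whose sign turned without kidney 4. Of all tested probe sets, 51.4% on array B and 52.1% on array C had a negative difference. The median difference was −0.11, beside −0.01 for all tested probe sets of array B and −0.01 for those of array C. No member had an unadjusted p under 0.05 in this test, the smallest being 0.109.

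Genes that act on the channel were taken from a list of 44 that cleave it, phosphorylate its ligases or carry it to the surface. On array B 14 were tested, 10 lower and 4 higher, with a median log2 difference of −0.03, and on array C 11 were tested, 10 lower and 1 higher, with a median of −0.13. Of all tested probe sets, 51.4% were lower on B and 52.1% on C. None passed the limma threshold on either array. The 2 with the smallest p on array C were Stx3, a syntaxin of the apical membrane, at 658.4, 574.7 and 563.9 in Dahl S against 438.6 and 430.4 in congenic kidneys (log2 difference −0.46, SE 0.14, adjusted p = 0.775 with limma), and the 14-3-3 protein Ywhae. Ywhae, of the family that binds phosphorylated Nedd4l, measured 1856, 2414 and 1959 against 1499 and 1752. Its brighter probe set on array A measured 4896, 5591 and 4024, then 4910 and 4988, with kidneys 4 and 5 inside the Dahl S range. Both congenic values of Stx3 were under the median of 510.3, so Stx3 was tested only through the Dahl S kidneys. On array A, 5 of 23 tested genes of the list were below the Dahl S range in both kidneys 4 and 5 and 3 above it, where 10.1% and 8.82% of the tested probe sets had those orders. Above it was the chloride channel Cftr, at 343.6, 371.4 and 438.9, then 518.7 and 509.3.

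Chaperones and cofactors of the steroid receptors, a list of 25, had 5 of 11 tested genes below the Dahl S range in both kidneys 4 and 5 on array A and none above it, where 10.1% and 8.82% of the tested probe sets had those orders. The chaperone Hsp90ab1, which holds the unliganded receptor ready to bind, measured 24833, 23034 and 21154, then 20085 and 19238. The orphan receptor Nr2f2 measured 534.7, 507.9 and 442.5, then 408.5 and 362.8. Its brighter probe set on array B did not separate the strains, at 2471, 2328 and 2765 in Dahl S against 2731 and 2469 in congenic kidneys. Fkbp4 and Stip1, also below the Dahl S range on array A, overlapped it on array B, while Hsp90b1 was lower again on array C. The summed signal of the 11 genes was 40344 to 43175 in Dahl S kidneys and 37185 and 36943 in kidneys 4 and 5. Between the strains, 8 of 11 tested genes were higher and 3 lower on B (median log2 difference 0.05), 5 of 8 higher and 3 lower on C (median 0.14), and none passed the limma threshold. The smallest p on array C was that of the coactivator Ncoa4 (log2 difference 1.88, SE 0.75, adjusted p = 0.775 with limma). It measured 288.1, 252.9 and 319.2 in Dahl S against 3087 and 360.0 in congenic kidneys 4 and 5, so that kidney 4 alone stood far from the others. All other values were under the median of 510.3, so Ncoa4 was tested only through kidney 4. On array A, where it reached the median, Ncoa4 measured 712.5, 1079.4 and 813.6, then 821.8 and 648.8, with kidney 4 inside the Dahl S range. Next by p on array C was Hsp90b1, the chaperone of the endoplasmic reticulum (log2 difference −0.33, SE 0.14, adjusted p = 0.779 with limma). Hsp90b1 measured 5589, 5469.5 and 5667 in Dahl S against 4161 and 4699.7 in congenic kidneys on array C. On array A it measured 3980.0, 4146 and 4222, then 3799.5 and 2980.3.

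Genes induced by aldosterone or glucocorticoids, a list of 28, had 2 of 2 tested genes lower on array B, and 4 higher and 4 lower on array C (median log2 difference −0.04), and none passed the limma threshold. The metal-binding protein Mt2A had the smallest p on array C, at 1065, 994 and 1076 against 1438 and 1251 (log2 difference 0.36, SE 0.14, limma adjusted p = 0.775). It was the 1 gene of the 8 tested there with both congenic kidneys above the Dahl S range, an order that 10.2% of the tested probe sets of array C had. The sodium pump subunit Atp1b1 was the 1 gene below that range, at 35105, 39617 and 41330 against 34079 and 30308, where 12.2% had that order. On array A 1 of 13 tested genes was outside the Dahl S range in both kidneys 4 and 5, again Atp1b1, below it. Pck1, the rate-limiting enzyme of gluconeogenesis, measured 14299 in kidney 4 of array A and 4802 to 5358 in the other 4, and 41284 in congenic kidney 4 of array C against 18562 to 23615 in the other 4. Errfi1, a feedback inhibitor of growth factor receptors, was highest in kidney 4 and lowest in kidney 5 on both arrays, at 3170.3 and 1310.4 on A and 5955 and 3659 on C. Pck1 and Errfi1 were chosen after their values were seen. Sgk1 measured 93.1% of the Dahl S mean in kidney 4 of array A. The cause of the values of kidney 4 was not tested.

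The thick limb protein Umod, a kidney marker, measured 29721 to 38633 on array A. Of the 8 adrenal markers there, 4 reached the median: Fdx1 (1589.7 to 1851), Th (376.3 to 671.6), Pnmt (310.0 to 522.0) and Cyp21a1 (262.1 to 424.1). Cyp11a1 (100.2 to 358.6) and Dbh (85.2 to 188.6) lay between the floor and that level on average, Star (22.9 to 42.5) was below the floor in all 5 kidneys, and Cyp11b2, the aldosterone synthase, in 4 of 5 (21.3 to 86.2). The summed signal of the 4 that reached the median was 2842 to 3138 in Dahl S kidneys, 2994 in kidney 4 and 2816 in kidney 5, and their part in the member values was not tested. The median signal per array lay between 294.5 and 334.3 on A, 472.8 and 519.5 on B and 491.3 and 524.4 on C. Leukocyte markers varied between kidneys, with a summed signal on array A of 11532 to 17886 in Dahl S kidneys, 11243 in kidney 4 and 15396 in kidney 5, and their part in the member values was not tested.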

How the data were processed

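The data are the submitters' value tables of 15 arrays of rat kidney total RNA. The authors deposited a linear signal intensity per probe set, made by software not given in the sources used here. Arrays had evidently been scaled, since their means without the top and bottom 2% ran from 1000.6 to 1001.4. This was left as it was. A background may or may not have been subtracted. Each design was processed alone: the 59 control probe sets were left out, signals under the 25th percentile were set to it and log2 was taken, and probe sets whose mean reached the median of the design were tested (4385 on B and 4420 on C; 4411 reached it on A). Strains were compared with limma 3.58.1 (lmFit, eBayes) under R 4.3.3 (3 Dahl S, 2 congenic kidneys, no covariate), with Benjamini-Hochberg adjustment over all tested probe sets of the design and a threshold of 0.05. The procedure was tested on simulated data.

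Means ± SD are of the unfloored signal, as are the orders of the kidneys and their shares in the main setting. Gene symbols came from the platform annotation, updated by gene identifier to RefSeq on GRCr8. Of probe sets with 1 symbol, A had 7006 with 6985 matched, B 5351 with 5333 and C 5821 with 5804. The array annotation names no build, so gene positions were used for chromosome and order. The brightest probe set stood for a list gene. All member probe sets are named. From each list the 2 genes with the smallest p per array, or on A the 2 with the widest gap, could be named, and some were left to counts. The members and the 10 lists were chosen with earlier results of these data known. Likeness between genes was not ranked, since 5 kidneys are fewer than the 6 needed for a correlation across samples. The number of arrays limits the precision. Alternatives were median scaling, quantile normalisation, the 10th or 40th percentile as floor, no filter, an intensity trend with robust variance, and leaving out each kidney.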

Additional observations from a re-analysis of the deposited data

Results flagged for a closer look

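On array A, kidneys 4 and 5, which entered no test because their strain is unsettled, both had more Scnn1b signal than any Dahl S kidney, the lower of them at 1.74 times the highest Dahl S value. For the Nr3c2 probe set M36074_at the same held, at 1.05 times, while M36074_g_at of the same accession placed kidney 5 lowest. Of all probe sets of array A, 7.39% had both kidneys 4 and 5 above all Dahl S kidneys. Both genes were below the median of the array, and neither difference was tested.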

How the results depend on the processing

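No paired analysis was possible because the strains share no kidney number within a design. The 5 member probe sets tested on arrays B and C stayed short of the threshold under every alternative run (limma adjusted p between 0.372 and 1.0). Their log2 differences kept their sign in 52 of 55 refits. The exceptions were Nr3c2 on array C without Dahl S kidney 1 (−0.044, the lowest of −0.044 to 0.29 over the kidneys left out) and without congenic kidney 5 (−0.019), and Nedd4l on array C without congenic kidney 4 (0.15, the highest of −0.36 to 0.15). Where a congenic kidney was left out, the remaining kidney was assumed to vary like the Dahl S kidneys. Nedd4 stayed negative throughout, from −0.32 to −0.21 with rc_AA944469_at, −0.26 to −0.18 with rc_AI227677_at and −0.16 to −0.01 with rc_AI230744_at.

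Of all probe sets, limma called 4 on array B and 0 on array C. On B it called 1 with quantile normalisation, 1 with median scaling, 1 with a floor at the 10th percentile and 1 with a floor at the 40th percentile, and 0 to 31 when a kidney was left out (31 without congenic kidney 5, 0 without any other). On C it called 2 without a filter and 1 with an intensity trend and robust variance, and 0 to 35 when a kidney was left out (35 without congenic kidney 5). The cause was not tested. The gap of Scnn1b held with quantile normalisation, median scaling and a floor at the 10th percentile, and vanished with a floor at the 40th percentile. The low signal of Scnn1b and Nr3c1 limits what these arrays show of them.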
